A study of Mus musculus with 8 samples.

Results

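The 9 genes described here encode BTB zinc finger transcription factors with known roles in lymphocytes: Zbtb7a, Zbtb7b, Zbtb1, Zbtb16, Zbtb17, Zbtb20, Zbtb32, Zbtb24 and Zbtb2. They were taken by name from the 19938 genes that had a probe set with a single gene symbol, and where a gene had several such probe sets the one with the highest mean over all arrays stood for it. All 9 were on the array and all 9 lay above the expression filter. Expression was measured on Affymetrix whole-transcript arrays in mouse naive CD4 T cells that had been sorted and then stimulated through CD3 and CD28 by antibodies for 24 hours, with IL6 and IL21, and with antibodies that block IL-4, IFNg and TGFb. Of the 8 arrays, 4 came from wild type mice (WT-labelled) and 4 from mice labelled T cell-specific conditional Bcl6-/- (KO-labelled). Both groups received the same culture, the cell type label of all 8 was follicular helper T (Tfh) cells, and the driver of the deletion, the age and the number of mice per array are not given in the sources used here. Where nothing says that arrays came from separate mice, p-values measure only the spread between these arrays, which may be technical.

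BTB zinc finger proteins carry an amino-terminal BTB (POZ) domain, through which they pair with one another and recruit corepressors or, in some cases, the ubiquitin ligase scaffold Cul3, and carboxy-terminal C2H2 zinc fingers that bind DNA. Bcl6, the protein deleted in the KO-labelled mice, belongs to this family. In T cells the family is known for fixing lineage choices: ThPOK (Zbtb7b) for the CD4 lineage, PLZF (Zbtb16) for innate-like T cells and Bcl6 for follicular helper cells. The comparison asks how transcripts of the family differ when Bcl6 is deleted.

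Signals are on the log2 scale, differences are KO-labelled minus WT-labelled, and adjusted p-values come from limma over 11926 tested genes. The median array signal lay between 7.35 and 7.42, pairs of arrays had correlations (r) from 0.986 to 0.998, and the number of arrays limits the precision. KO replicate 1 stood apart: the median distance of its genes from their group mean was 0.115, against 0.035 to 0.0725 in the other 7 arrays, and it correlated best with WT replicate 3. Results that it could move are therefore also given without it. All 7 CD4 T cell marker genes measured were above the filter, and Cd4 stood between 12.38 and 12.56 in all 8 arrays. Of 8 NKT and innate lymphoid, 6 B cell and 8 myeloid markers measured, 1 of each list lay above the filter (Tyrobp, Cd79b and Cd68), and none of these passed the test. In bulk samples, fewer cells of a type and less RNA per cell cannot be told apart. Bcl6 itself was higher in the KO-labelled arrays by 0.38 ± 0.0645 (SE, limma adjusted p = 0.0303), in a probe set whose place relative to the deletion is not known here, so this value is no check of the labels.

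None of the 9 genes passed the threshold of 0.05, where 1.32% of all tested genes did (77 higher or 0.646%, and 80 lower or 0.671%; 48 higher and 30 lower after median centring of the arrays). Their median difference was -0.005, beside -0.0175 over all tested genes, and without KO replicate 1 it was 0.03, beside -0.01 over all. Of the 9 differences 3 were positive, and 6 were without KO replicate 1. In 8 of the 9 the difference was 0.113 or less in size. The exception in size was Zbtb32, at -0.30. At an unadjusted p under 0.05, 1 of the 9 was lower and 0 were higher, beside 10.5% of all tested genes lower and 6.15% higher (16.6% in all). The WT-labelled and KO-labelled values overlapped in all 9, whereas 10.8% of all tested genes showed no overlap. The 95% interval of every one of the 9 differences lay inside a 1.5-fold change (0.585 on the log2 scale), and the interval reaching farthest, that of Zbtb32, ended at -0.55. Without KO replicate 1 none of the 9 passed either, while 6.56% of all tested genes did (3.88% higher and 2.67% lower), and all 9 intervals again lay inside 1.5-fold.

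**Figure D1:**
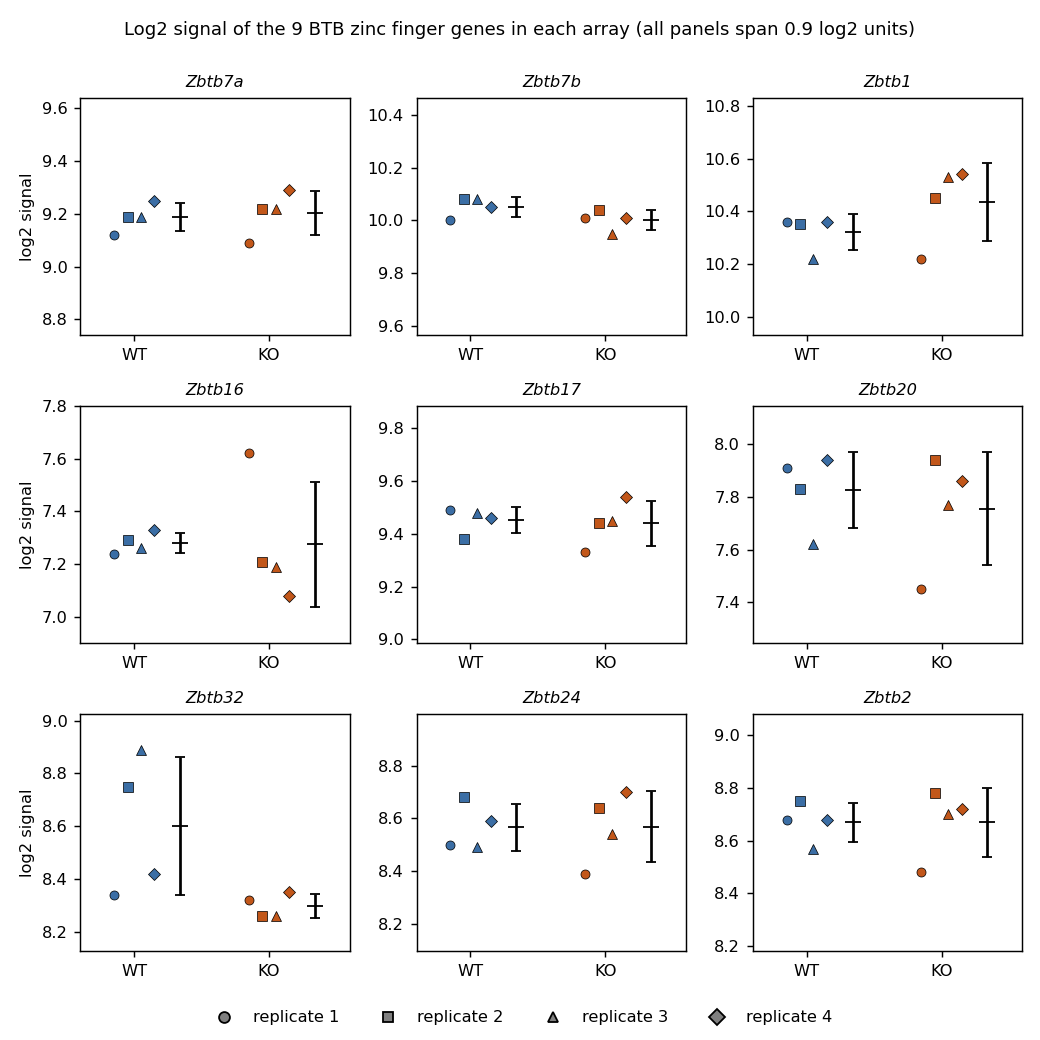
Log2 signal (y axis) of each of the 9 genes in the 4 WT-labelled (blue) and 4 KO-labelled (orange) arrays, with marker shape for the replicate number and a bar for mean ± SD (n = 4); every panel spans the same range. The groups overlap in all 9 panels, and KO replicate 1 (orange circle) is the lowest or highest of all 8 arrays in 6 of them. The share of all tested genes with KO replicate 1 at such an extreme was not counted.

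Zbtb32, also called ROG or PLZP, is a repressor induced when T cells are stimulated and is known to restrain cytokine production and to bind Gata3. Its probe set read 8.34, 8.75, 8.89 and 8.42 in WT replicates 1 to 4 and 8.32, 8.26, 8.26 and 8.35 in KO replicates 1 to 4. WT replicates 2 and 3 were high, whereas WT replicates 1 and 4 lay close to the narrow range of the KO-labelled arrays, and WT replicate 1 was below KO replicate 4. The means were 8.60 ± 0.262 and 8.30 ± 0.045 (SD, n = 4), a difference of -0.30 ± 0.111 (SE, 95% interval -0.55 to -0.0553, limma adjusted p = 0.211, exact permutation p = 0.0571). It was -0.31 ± 0.119 without KO replicate 1 (limma adjusted p = 0.134), and between -0.389 and -0.206 over the fits with 1 array left out. Tnfrsf12a, a receptor of the TNF receptor family, had the most similar pattern over the 8 arrays among the other tested genes (Pearson r = 0.971).

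The 250 bases before a RefSeq start of Zbtb32 are shown because Zbtb32 had the largest difference of the 9 genes and because this stretch is rich in CCAAT letters. The stretch is chr7:30598910-30599159 on the minus strand of GRCm38.p6, 5′ to 3′, and capitals mark CCAAT.
Zbtb32: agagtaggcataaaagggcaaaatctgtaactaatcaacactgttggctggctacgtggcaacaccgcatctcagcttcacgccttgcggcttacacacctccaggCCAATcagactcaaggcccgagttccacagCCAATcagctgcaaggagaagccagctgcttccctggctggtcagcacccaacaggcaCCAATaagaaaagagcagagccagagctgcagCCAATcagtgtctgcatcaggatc
CCAAT is the core letters of the binding site of the factor NF-Y and was searched on both strands. The stretch holds it 4 times, beginning at positions -144, -114, -56 and -24 relative to the start, and 1.06% of the 32851 mouse promoters in the RefSeq table (300 bases each, of which 250 lie before the start) hold it at least as often. The table lists a further Zbtb32 start, whose promoter holds none. A match is a description of the letters and not evidence of binding.

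RefSeq promoters were listed for 8 of the 9 genes, 11 promoters in all. CCAAT occurred in 4 of these 11, the Zbtb32 promoter shown above among them, and in 37.4% of all promoters. CACGTG, also searched, occurred in 1 of these 11 and in 7.15% of all promoters. The letters TTCCTNGAA, a form of the sequence recognised by Bcl6, occurred in 0 of these 11 on either strand and in 1.59% of all promoters. The looser TTCNNNGAA, which includes those letters and is the core of STAT sites, occurred in 1 of the 11, that of Zbtb20, and in 8.3% of all promoters. The promoters of Zbtb1, Zbtb2 and Zbtb7a were dense in CpG, with 39, 33 and 31 such dinucleotides in 300 bases, where the median promoter holds 7. Those of Zbtb20 and of the downstream start of Zbtb32 held 3 each.

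Markers of cytotoxic and CD8 T cells are given beside Zbtb32 because some of them moved with it across the WT-labelled arrays. Nkg7, a granule protein of cytotoxic cells, read 10.05, 10.79, 10.91 and 9.95 in WT replicates 1 to 4 and 9.11, 9.55, 9.58 and 9.89 in KO replicates 1 to 4. Every KO-labelled array was below every WT-labelled one, and WT replicates 2 and 3 were high as they were for Zbtb32. The difference was -0.89 ± 0.233 (SE, limma adjusted p = 0.0947). Eomes, a T-box factor of cytotoxic and memory cells, read 7.36, 8.03, 8.02 and 7.64 in the WT-labelled arrays and 7.29, 7.57, 7.31 and 7.41 in the KO-labelled ones (difference -0.37 ± 0.141, limma adjusted p = 0.232). Eomes too was highest in WT replicates 2 and 3. This pattern was not particular to the list. Gata3, Ifng and Myc, named here after their values were seen, were also highest in these 2 among the WT-labelled arrays. Ifng, for example, read 7.76, 8.31, 8.54 and 7.71 in WT replicates 1 to 4.

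Cd8a, which encodes the defining CD8 chain, read 7.05, 7.32, 7.73 and 7.21 in the WT-labelled and 7.59, 7.11, 7.06 and 7.38 in the KO-labelled arrays (difference -0.04 ± 0.154, limma adjusted p = 0.937), so that WT replicate 3 and KO replicate 1 were highest. The Cd8a values, like those of Eomes in the KO-labelled arrays, lay close to the filter, which stood between 6.91 and 7.15. The part of background signal in them was not tested. Cd8b1, the partner chain of Cd8a, differed by 0.03 ± 0.101 (limma adjusted p = 0.932). None of the 4 tested genes of the 6 on this list passed. The log2 signals of all 6 summed to between 47 and 49.7 in the WT-labelled and between 46.4 and 47.2 in the KO-labelled arrays. Gzmk and Cd160 did not reach the filter in the 4 arrays required. Gzmk read 6.03 to 6.20 in the WT-labelled and 5.80 to 6.34 in the KO-labelled arrays. Cd160 exceeded the filter in 3 WT-labelled arrays, at 6.91 to 7.60 in that group against 6.82 to 6.89. The part of other cell types in the Zbtb32 values was not tested.

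**Figure D2:**
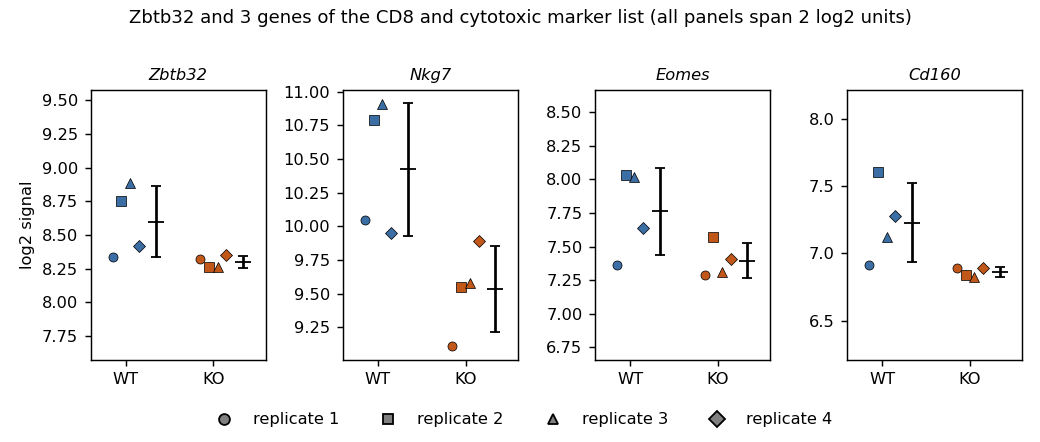
Log2 signal (y axis) of Zbtb32 and of Nkg7, Eomes and Cd160 from the CD8 and cytotoxic marker list in each WT-labelled (blue) and KO-labelled (orange) array, with bars for mean ± SD (n = 4). WT replicate 2 (square) and WT replicate 3 (triangle) are the highest WT-labelled arrays for Zbtb32, Nkg7 and Eomes. For Cd160, WT replicates 2 and 4 are the highest (7.60 and 7.28, against 7.12 in WT replicate 3). Cd8a and Cd8b1 of the same list, with differences of -0.04 and 0.03, are not shown, nor is Gzmk, which lay under the filter in all 8 arrays. Each gene of the list that is not shown was also highest in WT replicates 2 and 3 among the WT-labelled arrays. The 3 marker genes shown, each with a lower mean in the KO-labelled arrays, were picked for display after their values were seen.

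Of 7 T helper cytokine and regulator genes linked to Zbtb32, 4 were tested and none passed. Il2, the growth factor of activated T cells, had the smallest p: it read 11.21, 11.18, 11.28 and 10.92 in the WT-labelled and 10.64, 10.99, 10.69 and 10.59 in the KO-labelled arrays, a difference of -0.42 ± 0.101 (SE, limma adjusted p = 0.0782). WT replicate 4 alone among the WT-labelled arrays lay within the range of the KO-labelled ones. Gata3, the T helper 2 master factor that Zbtb32 binds, read 8.62, 9.14, 9.32 and 9.01 in the WT-labelled and 9.48, 9.51, 9.39 and 9.44 in the KO-labelled arrays. These groups did not overlap, with a difference of 0.43 ± 0.124 (SE, limma adjusted p = 0.118); Gata3 is named after its values were seen.

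Zbtb7b encodes ThPOK, which commits thymocytes to the CD4 lineage and keeps CD8 genes silent in mature CD4 T cells. Its probe set read 10, 10.08, 10.08 and 10.05 in the WT-labelled arrays and 10.01, 10.04, 9.95 and 10.01 in the KO-labelled arrays. All 8 values thus lay within a narrow band, and the difference was -0.05 ± 0.0436 (SE, 95% interval -0.147 to 0.0474, limma adjusted p = 0.645). The value without KO replicate 1 was also -0.05 (limma adjusted p = 0.464). Rcn1, which encodes the calcium-binding protein reticulocalbin, had the most similar pattern over the 8 arrays (r = 0.974).

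Zbtb7a encodes LRF, the closest relative of ThPOK, which acts with it in CD4 T cells. Zbtb7a read 9.12, 9.19, 9.19 and 9.25 in the WT-labelled arrays and 9.09, 9.22, 9.22 and 9.29 in the KO-labelled arrays. The ranges nearly coincided, and the difference was 0.02 ± 0.0544 (SE, 95% interval -0.104 to 0.139, limma adjusted p = 0.929). Over the 8 arrays its pattern was most like that of 2700049A03Rik (r = 0.994).

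In a list of 13 genes of CD4 and CD8 lineage control, 12 were tested, 0 were higher, 1 was lower and 11 did not pass, where 0.646% of all tested genes were higher and 0.671% lower. The 1 was Tox, a nuclear factor needed for CD4 lineage development, which fell by 0.39 on the log2 scale. It read 10.32, 10.47, 10.39 and 10.13 in the WT-labelled and 9.87, 9.98, 9.89 and 10.01 in the KO-labelled arrays, with no overlap (limma adjusted p = 0.0423). That call held without WT replicate 4 or KO replicate 1 and was lost without any 1 of the other arrays (limma adjusted p from 0.0191 to 0.146). It was also lost after median centring (limma adjusted p = 0.056), with no filter (limma adjusted p = 0.0791) and without KO replicate 1 and WT replicate 3 together (limma adjusted p = 0.0538). Cd4, the gene that ThPOK protects from silencing, differed by 0.005 ± 0.0506 (SE, limma adjusted p = 0.979). In the fit of 7 arrays without KO replicate 1, 0 of the 12 were higher and 3 were lower, beside 3.88% and 2.67% of all tested genes. The 3 were Tox, Runx3 (-0.22, limma adjusted p = 0.0332), the CD8 lineage factor that ThPOK opposes, and Myb (-0.25, limma adjusted p = 0.0384), the latter pair named after their values were seen.

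Zbtb16 encodes PLZF, which directs the innate-like program of NKT cells and innate lymphoid precursors. It read 7.24, 7.29, 7.26 and 7.33 in the WT-labelled arrays and 7.62, 7.21, 7.19 and 7.08 in the KO-labelled arrays, close to the filter, which stood between 6.91 and 7.15. KO replicate 1 was the highest of the 8, while the other 3 KO-labelled arrays were below all 4 WT-labelled ones. The difference was -0.005 ± 0.101 (SE, 95% interval -0.231 to 0.221, limma adjusted p = 0.991), and without KO replicate 1 it was -0.12 ± 0.0477 (limma adjusted p = 0.144). With KO replicate 1 left out the groups did not overlap in 2 of the 9 genes, Zbtb16 and Zbtb1, beside 22.6% of all tested genes. Kcnmb3, a potassium channel subunit gene, had the most similar pattern (r = 0.986, and 0.935 over the 7 other arrays).

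Of 15 genes of the innate-like T cell program, 9 were tested and none passed. Klrb1c, Klrd1 and Klrk1, which encode NK receptors, lay under the filter in all 8 arrays. Sh2d1a, whose product SAP is required for NKT cell development and for T cell help to B cells, had the smallest p: 8.79, 9.07, 8.83 and 9.01 against 8.86, 9.36, 9.23 and 9.39, a difference of 0.29 ± 0.115 (SE, limma adjusted p = 0.25). KO replicate 1 alone among the KO-labelled arrays lay within the WT-labelled range, and without it Sh2d1a differed by 0.40 ± 0.075 (limma adjusted p = 0.0174). In that fit 1 of the 9 tested genes was higher and 1 lower (3.88% and 2.67% of all tested genes), the latter being Rora (limma adjusted p = 0.0223), named after its values were seen. Cul3, the ligase scaffold that PLZF and Bcl6 bring into the nucleus, differed by -0.005 ± 0.051 (SE, limma adjusted p = 0.979). The sign of so small a value turned without KO replicate 1 (0.02) and after median centring (0.005).

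Zbtb1 encodes a factor required for the development of T cells and other lymphocytes from their progenitors. It read 10.36, 10.35, 10.22 and 10.36 in the WT-labelled arrays and 10.22, 10.45, 10.53 and 10.54 in the KO-labelled arrays. KO replicates 2 to 4 were above all 4 WT-labelled arrays, and KO replicate 1 and WT replicate 3 shared the lowest value. The difference was 0.11 ± 0.0746 (SE, 95% interval -0.0539 to 0.279, limma adjusted p = 0.518, exact permutation p = 0.229). Without KO replicate 1 it was 0.18 ± 0.0505 (95% interval 0.0712 to 0.297, limma adjusted p = 0.0581), the smallest adjusted p of the 9 genes in that fit. Without both KO replicate 1 and WT replicate 3 the difference of Zbtb1 was 0.15 (limma adjusted p = 0.111). Without WT replicate 3 alone it was 0.0783 (limma adjusted p = 0.779). Among the fits over all 8 arrays, it passed with limma's array weights, which count KO replicate 1 least (0.17, limma adjusted p = 0.0393), a setting in which 16.6% of all tested genes passed (8.47% higher and 8.13% lower). Galnt9, a gene of the glycosyltransferases that start O-linked chains, had the most similar pattern (r = 0.991).

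Of 5 genes linked to Zbtb1, all 5 were tested, 1 was higher and 0 were lower, beside 0.646% and 0.671% of all tested genes. The 1 was Rad18, a ubiquitin ligase of DNA damage tolerance that Zbtb1 helps to recruit to damaged DNA, which rose from 11.73, 11.74, 11.78 and 11.87 to 11.97, 12.04, 12.05 and 12.11. The groups did not overlap, and the difference was 0.26 ± 0.0509 (SE, limma adjusted p = 0.0465). This call held without WT replicate 4 or KO replicate 1 and was lost without any 1 of the other arrays (limma adjusted p from 0.0116 to 0.165). It was also lost after median centring (limma adjusted p = 0.0872), with no filter (limma adjusted p = 0.103) and with the filter percentile taken over all probe sets (limma adjusted p = 0.0514), an alternative chosen after seeing the data. Trim28, the corepressor that Zbtb1 also binds, differed by -0.15 ± 0.0401 (limma adjusted p = 0.103), with no overlap. Asns, the asparagine synthetase gene activated by Zbtb1, differed by 0.28 ± 0.0863 (limma adjusted p = 0.146), and Il7r, the IL-7 receptor chain of lymphoid survival, by 0.76 ± 0.185 (limma adjusted p = 0.0794). With KO replicate 1 left out, 3 of the 5 were higher (Rad18, Asns and Il7r) and 0 were lower, beside 3.88% and 2.67% of all tested genes; Trim28, Asns and Il7r are named here after their values were seen.

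**Figure D3:**
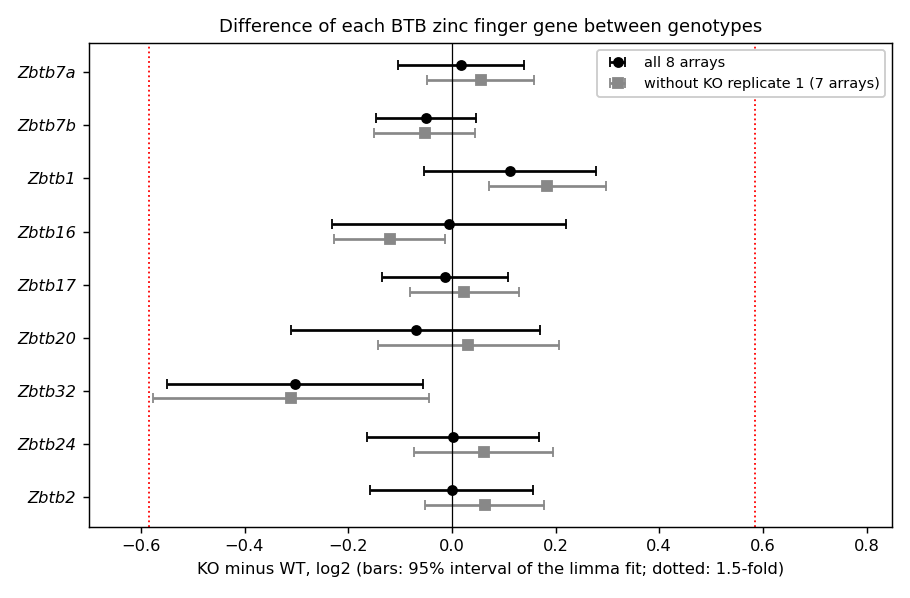
KO-labelled minus WT-labelled difference (x axis, log2) of the 9 genes with its 95% interval, over all 8 arrays (black circles) and without KO replicate 1 (grey squares); dotted lines mark a 1.5-fold change. All intervals lie inside the dotted lines, Zbtb32 lies farthest from 0 in both, and leaving out KO replicate 1 shifts Zbtb1 from 0.11 to 0.18 and Zbtb16 from -0.005 to -0.12.

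Zbtb17 encodes Miz-1, which activates cell cycle inhibitor genes until Myc binds it and turns it into a repressor. It read 9.49, 9.38, 9.48 and 9.46 in the WT-labelled arrays and 9.33, 9.44, 9.45 and 9.54 in the KO-labelled arrays. The KO-labelled arrays held both the lowest and the highest value, and the difference was -0.01 ± 0.0545 (SE, 95% interval -0.134 to 0.109, limma adjusted p = 0.948). Without KO replicate 1 it was 0.02 (limma adjusted p = 0.77). Coq10b, which encodes a coenzyme Q binding protein of mitochondria, had the most similar pattern (r = 0.986).

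None of 9 tested genes of the Myc and Miz-1 circuit, out of 11 listed, passed. Myc itself read 12.79, 12.88, 12.92 and 12.72 in the WT-labelled and 12.79, 12.78, 12.78 and 12.76 in the KO-labelled arrays. The KO-labelled values lay within the wider WT-labelled range, and the difference was -0.05 ± 0.0522 (SE, limma adjusted p = 0.715). Bcl2, the survival gene that Miz-1 supports downstream of the IL-7 receptor, had the smallest p of this list: the WT-labelled arrays ran from 11.42 to 11.65 and the KO-labelled ones from 11.67 to 11.76, with no overlap, a difference of 0.13 ± 0.0579 (SE, limma adjusted p = 0.297).

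Zbtb20 encodes a family member related to Bcl6 in sequence and is known from plasma cells, liver and brain. Its gene lies on chromosome 16, as does that of Bcl6. The stronger of its 2 probe sets read 7.91, 7.83, 7.62 and 7.94 in the WT-labelled arrays and 7.45, 7.94, 7.77 and 7.86 in the KO-labelled arrays. KO replicate 1 was lowest and WT replicate 3 next, and the remaining 6 arrays overlapped. The difference was -0.07 ± 0.108 (SE, 95% interval -0.311 to 0.171, limma adjusted p = 0.831), and it turned to 0.03 ± 0.0778 without KO replicate 1 (limma adjusted p = 0.818). The other probe set read 7.63 to 7.83 and 7.68 to 7.82, and did not show the low value of KO replicate 1 (difference 0.02 ± 0.0558, limma adjusted p = 0.902 in a fit of all named probe sets). Ghdc had the most similar pattern to the stronger probe set (r = 0.982). Of 4 genes linked to Zbtb20, 2 were tested and none passed. Irf4, which drives Zbtb20 in plasma cells, had the smaller p (0.10 ± 0.0514, limma adjusted p = 0.39).

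Zbtb24 encodes a factor mutated in the ICF immunodeficiency syndrome, in which centromeric repeats lose DNA methylation. It read 8.50, 8.68, 8.49 and 8.59 in the WT-labelled arrays and 8.39, 8.64, 8.54 and 8.70 in the KO-labelled arrays. The KO-labelled values surrounded the WT-labelled ones, and the difference was 0.00 ± 0.0739 (SE, 95% interval -0.163 to 0.168, limma adjusted p = 0.993). Bicd2, a dynein adaptor gene, had the most similar pattern (r = 0.98). None of 10 tested genes of the ICF pathway and of Zbtb24 targets, out of 11 listed, passed. Cdca7, the ICF gene that Zbtb24 activates, differed by -0.05 ± 0.0592 (limma adjusted p = 0.775). Rnf169, a DNA repair gene on the list, had the smallest p, with 9.60 to 9.72 in the WT-labelled and 9.38 to 9.52 in the KO-labelled arrays (difference -0.21 ± 0.0509, limma adjusted p = 0.0782). Over the 7 arrays without KO replicate 1, 1 of the 10 was higher and 1 lower, beside 3.88% and 2.67% of all tested genes. Dnmt3b, the DNA methyltransferase gene of the same syndrome, named after its values were seen, differed by 0.27 ± 0.0531 (limma adjusted p = 0.0199), and Rnf169 by -0.19 ± 0.05 (limma adjusted p = 0.0497).

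Zbtb2 encodes a repressor that has been linked to control of the p53 pathway. The stronger of its 2 probe sets read 8.68, 8.75, 8.57 and 8.68 in the WT-labelled arrays and 8.48, 8.78, 8.70 and 8.72 in the KO-labelled arrays, so that both means came to 8.67. KO replicate 1 was the lowest of the 8. The difference was 0.00 ± 0.0702 (SE, 95% interval -0.157 to 0.157, limma adjusted p of 1), and 0.06 ± 0.0512 without KO replicate 1 (limma adjusted p = 0.448). The other probe set read 8.52, 8.61, 8.64 and 8.51 against 8.48, 8.44, 8.38 and 8.55, a difference of -0.11 ± 0.0536 (SE, limma adjusted p = 0.355 in the fit of all named probe sets), so the probe sets did not give the same value. Mettl16, an RNA methyltransferase gene, had the most similar pattern to the stronger one (r = 0.968). Of 3 tested genes linked to Zbtb2 none passed, and Mdm2, the ubiquitin ligase that limits p53, had the smallest p (0.14 ± 0.0803, limma adjusted p = 0.447).

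KO replicate 1, which stood apart over all tested genes, lay at an extreme for most of the 9 genes. How many of all tested genes had it at an extreme was not counted, so this cannot be called particular to the 9. In 6 of the 9 genes KO replicate 1 was either below or above every other array: it was the highest for Zbtb16 and the lowest for Zbtb7a, Zbtb17, Zbtb20, Zbtb24 and Zbtb2. It was the lowest of the KO-labelled arrays in 6 of the 9, beside 53.8% of all tested genes. Its distance from the mean of the other 3 KO-labelled arrays was 0.46 for Zbtb16, -0.41 for Zbtb20 and -0.29 for Zbtb1, where the median size over all tested genes was 0.153. The similarity of each gene to its closest partner gene above is the highest of 11925 correlations over 8 arrays, and no p is attached to it.

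The rest of the family was examined in the same fit. Of 40 other BTB zinc finger genes listed, 39 had a named probe set and 36 were tested. Bcl6, at 8.61, 8.91, 8.78 and 8.79 in the WT-labelled and 9.08, 9.15, 9.18 and 9.19 in the KO-labelled arrays, was the only one of the 36 that passed (1 higher, 0 lower, 35 not), and the median difference over the 36 was -0.04, or -0.03 without KO replicate 1. The groups did not overlap in 4 of the 36, beside 10.8% of all tested genes: Bcl6, Zbtb48 (-0.19 ± 0.0522, limma adjusted p = 0.11), Zbtb45 (-0.14 ± 0.042, limma adjusted p = 0.142) and Zbtb40 (-0.12 ± 0.0462, limma adjusted p = 0.232), of which the latter 3 are named after their values were seen. Zbtb48 encodes the telomere-binding protein TZAP. Over the 45 tested genes of the whole family, 14 differences were positive and 29 negative, and without KO replicate 1 the counts were 23 and 22. Over all tested genes 41.1% of the differences were positive, and 45.2% without KO replicate 1. The call of Bcl6 held without KO replicate 1 (limma adjusted p = 0.0104) and was lost without WT replicate 3 or 4 or KO replicate 2, 3 or 4, with a highest limma adjusted p of 0.11.

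**Figure D4:**
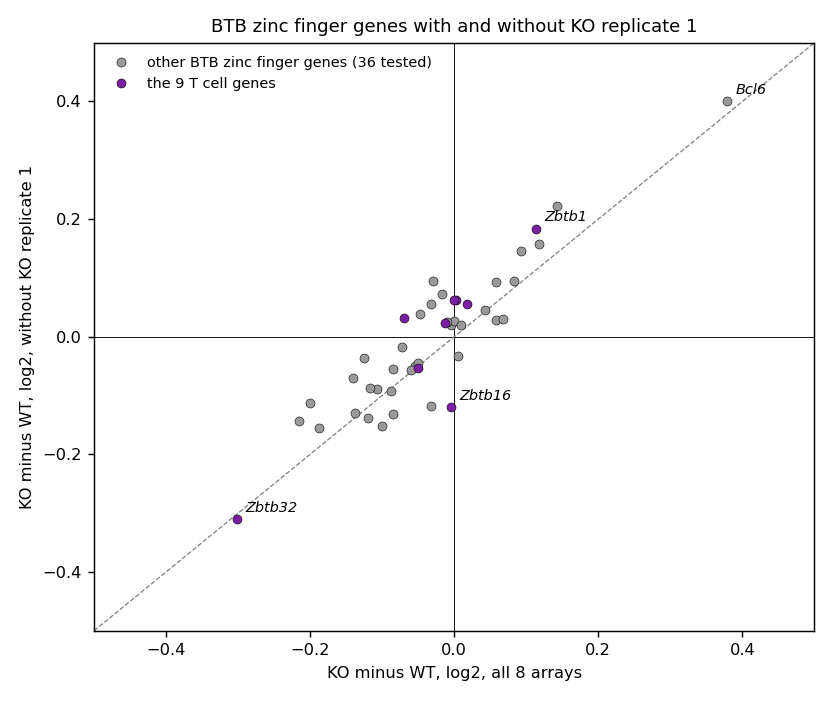
KO-labelled minus WT-labelled difference (log2) of the 9 genes (purple) and the 36 other tested BTB zinc finger genes (grey), over all 8 arrays (x axis) and without KO replicate 1 (y axis), with the line of equality dashed. Bcl6 at 0.38 and Zbtb32 at -0.30 lie farthest out along the x axis, and many of the points nearer 0, of both colours, lie off the dashed line.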

How the data were processed

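The authors deposited 1 log2 value per probe set and array. RMA and Partek are named in the submitters' processing notes; versions, order of steps and genome build are not given in the sources used here. RMA normalizes arrays to like distributions, which hides any shift in total RNA. Of 35556 probe sets, the platform annotation gave 1 symbol for 21789, several for 1621 and none for 12146; 21698 matched the RefSeq gene table (GRCm38.p6) by Entrez identifier. The 11926 genes tested exceeded, in at least 4 arrays, the 40th percentile of that array's probe sets with 1 symbol. Groups came from the sample labels. The test was limma's lmFit and eBayes (version 3.58.1, R 4.3.3, two-sided, Benjamini-Hochberg over all tested genes, threshold 0.05), with intervals from the moderated t distribution and exact permutation tests beside it, whose smallest p for 4 against 4 is 0.0286. The steps were tested on simulated data.

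The 9 genes, the lists and the tests were chosen with earlier results of these data known. The genes named were the 9, Bcl6, Myc and Cul3, for each list up to 2 risers and 2 fallers past the threshold by size, or else the gene with the smallest p, and the most correlated gene of each of the 9; other names are marked or illustrate a list. Promoters came from RefSeq (GRCm38.p6). The alternatives tried are listed with their effect in the closing section.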

Additional observations from a re-analysis of the deposited data

Results flagged for a closer look

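In 5 of the 68 groups of 4 values examined for named genes, 1 array lay far from the other 3 by Dixon's criterion, where chance alone gives about 3.4. Among the 9 genes this held for 1 of 18 groups: Zbtb1 read 10.22 in WT replicate 3, below the other WT-labelled arrays at 10.35 to 10.36. Galnt9 was low in the same array (7.35, the others up to 7.52). It was picked as the gene most like Zbtb1 over these 8 arrays, so this is no separate observation. In the WT-labelled arrays Coq10b, picked in the same way for Zbtb17, was low in WT replicate 2 (9.32, the others 9.47 to 9.50). In the KO-labelled arrays Irf4 was low in KO replicate 1 (12.63, the others 12.74 to 12.76) and Bcl2 was high in KO replicate 4 (11.76, the others 11.67 to 11.68).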

How the results depend on the processing

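The count of 157 genes past the threshold was 322 after another quantile normalization, 78 with median centring, 58 with no filter, 354 with an intensity trend and robust prior, 1980 with array weights, 443 without KO replicate 1 and WT replicate 3 together, 27 and 468 at thresholds of 0.01 and 0.1, and 31 (without WT replicate 2) to 782 (without KO replicate 1) with 1 array left out. It was 229 with the filter at the 50th percentile and 123 with the mean over the probe sets of a gene. With the 40th percentile taken over all probe sets, chosen after seeing the data, it was 111. None of the 9 genes passed in any alternative but array weights. In that setting 2 did, Zbtb1 (0.17) and Zbtb32 (-0.39, limma adjusted p = 0.0201), beside 16.6% of all tested genes. For the 36 other family genes the count of 1 became 7 with array weights, beside the same 16.6%. It was 0 with no filter and at a threshold of 0.01, and 0 to 1 with 1 array left out. Same-numbered arrays deviated together at r of 0.0111, 0.145, -0.174 and 0.308 for replicates 1 to 4. WT replicates 2 and 4 deviated most like the KO-labelled array of their own number, and WT replicates 1 and 3 did not. So few arrays cannot settle whether the numbers pair the samples. With the replicate block the counts were 36 genes, 0 of the 9 and 0 other family genes. The calls of Bcl6, Tox and Rad18 were then lost (limma adjusted p = 0.0606, 0.104 and 0.0908). With no filter Bcl6 was lost too (limma adjusted p = 0.0595).

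Signs of differences near 0 turned. Zbtb16 was 0.013 after quantile normalization and 0.005 with centring, and -0.12 to 0.06 with 1 array left out. Zbtb17 was 0.00703 after quantile normalization, 0.036 with array weights, 0.033 without KO replicate 1 and WT replicate 3 together and -0.046 to 0.024 with 1 array left out. Zbtb20 was 0.0097 with array weights and -0.138 to 0.032 with 1 array left out. With the mean over the probe sets of a gene it was -0.024. Zbtb2, at 0.00 in the main fit, was -0.054 with that mean and -0.037 to 0.063 with 1 array left out. Zbtb24 was -0.011 with array weights and -0.042 to 0.062 with 1 array left out, and Zbtb7a -0.011 to 0.056. Cul3 was 0.005 with centring, 0.042 with array weights, 0.00333 without both arrays and -0.028 to 0.023 with 1 array left out. The cause of these changes was not tested. Zbtb16 lay close to the filter and was not tested with the filter at the 50th percentile. The part of background signal in its values was not tested.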
